A study of Mus musculus with 1 sample.

Results

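The 10 genes of germ cell (GC) fate and meiosis were followed in fetal mouse testis: the fate genes *Nanos2* and *Nanos3*, the meiosis genes *Stra8*, *Rec8*, *Smc1b*, *Sycp1* and *Sycp3*, and the GC RNA-binding genes *Dazl*, *Ddx4* and *Dnd1*. They were chosen by name, and each of the 10 genes matched 1 of the 22631 rows of the count matrix. They were read in 253 germ-like cells of the 3824 cells kept. The study compared control testes with testes whose Sertoli cells (SCs) lacked *Nr5a1*, through a Cre transgene driven by the anti-Müllerian hormone promoter, and only the control library is described. The control library was labelled WT and E14.5, while the study's text also names a day earlier. Per the methods, its fetuses carried the loxP-flanked *Nr5a1* allele (L2/L2) without the Cre and YFP transgenes, on a mixed C57BL/6 and 129/SvPass background. Cells of 12 controls, which the study's text counts as testes, were pooled in 1 library of the droplet 3′ (10x) chemistry, so fetuses cannot be told apart and there was no replicate. No difference between cells was therefore tested, and every interval given is a 95% interval. For levels and their ratios it covers counting error only, and for shares of cells only the sampling of cells from this pool.

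Male GCs enclosed in testis cords stop dividing and take the spermatogonial path, whereas GCs of the fetal ovary enter meiosis. STRA8, induced by retinoic acid, is the gatekeeper of meiotic entry, and NANOS2, with its partner DND1, recruits a deadenylase complex to RNAs and represses meiotic genes in male GCs. NANOS3 is needed for GC survival, DAZL and DDX4 are RNA-binding proteins of all GCs of this stage, REC8 and SMC1B are cohesin subunits of meiotic chromosomes, and SYCP1 and SYCP3 build the synaptonemal complex.

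The sequence before the start site differed between the fate gene *Nanos2* and genes of meiotic chromosomes, as shown by stretches upstream of *Nanos2*, *Rec8*, *Sycp1* and *Sycp3*. They come from the RefSeq promoter table for GRCm38.p6, which holds 250 bases before to 50 bases after each gene's start and matched 9 of the 10 genes, and each stretch stops at the nearest annotated exon. Each is read along the gene's own strand, with matches to 3 motifs in capitals: CACGTG (an E-box), TCCCGC (the core of an E2F site) and AGGTCA (the core element of nuclear receptor sites), on either strand. The stretches lie at chr7:18987274-18987399 (plus strand) for *Nanos2*, chr14:55617916-55618036 (plus) for *Rec8*, chr3:102936101-102936350 (minus) for *Sycp1* and chr10:88459337-88459568 (plus) for *Sycp3*.
Nanos2: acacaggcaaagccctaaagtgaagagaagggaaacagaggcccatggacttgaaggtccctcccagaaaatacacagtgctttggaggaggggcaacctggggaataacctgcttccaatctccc
Rec8: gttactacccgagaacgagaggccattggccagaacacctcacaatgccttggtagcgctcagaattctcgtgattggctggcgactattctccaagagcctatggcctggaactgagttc
Sycp1: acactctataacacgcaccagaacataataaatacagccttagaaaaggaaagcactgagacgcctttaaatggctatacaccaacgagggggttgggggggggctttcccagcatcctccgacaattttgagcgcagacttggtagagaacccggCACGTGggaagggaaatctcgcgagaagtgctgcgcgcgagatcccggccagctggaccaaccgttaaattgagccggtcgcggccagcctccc
Sycp3: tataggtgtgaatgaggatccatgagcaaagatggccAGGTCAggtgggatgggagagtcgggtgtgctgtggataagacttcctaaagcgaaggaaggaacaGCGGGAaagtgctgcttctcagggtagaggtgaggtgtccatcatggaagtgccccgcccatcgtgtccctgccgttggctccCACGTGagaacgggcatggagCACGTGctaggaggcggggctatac
The *Nanos2* stretch of 126 bases held no CpG, against 5 in 121 bases for *Rec8*, 17 in 250 for *Sycp1* and 10 in 232 for *Sycp3*. Over the whole 300-base window, the observed over expected CpG ratio was 0 for *Nanos2* and 0.131 for *Nanos3*, beside a median of 0.384 over 32851 promoters. It was 0.430 for *Stra8* and lay between 0.666 for *Sycp3* and 1.08 for *Smc1b* for the other 6 genes.

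CACGTG was found in 3 of the 9 windows (*Ddx4*, *Sycp1* and *Sycp3*) and in 7.15% of all promoters. TCCCGC was found in 5 (*Ddx4*, *Rec8*, *Smc1b*, *Sycp1* and *Sycp3*) and in 20.0% of all promoters, and AGGTCA in 3 (*Nanos2*, *Stra8* and *Sycp3*) and in 16.3%. The matches to TCCCGC for *Rec8* and *Sycp1* and to AGGTCA for *Nanos2* are not within the stretches printed above. For *Stra8*, the gene that retinoic acid induces, the 2 matches to AGGTCA are shown with 9 bases on each side, in capitals, at chr6:34920745-34920768 and chr6:34920901-34920924 (plus strand, GRCm38.p6).
Stra8 far match: ggggtgaaaAGGTCAtcttgctcc
Stra8 near match: tggggtaccAGGTCAgttttttac
They lie 194 and 38 bases before the RefSeq start, in sequence that the annotation also gives as exon. A match describes letters and does not show that a factor binds there.

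The germ-like cells were 1 cluster of the control library and made up 6.62% of the cells kept. Their median depth was 36155 unique molecular identifiers (UMIs, 1 per captured RNA molecule; range 2465 to 53635), against 11656 in the 3571 other cells. Without the outlier filter, 312 cells were germ-like, with a median of 38139 UMIs, and the 253 were all among them. The depth range given is that left by the filter, whose upper limit was 54009.5 UMIs. The markers went with the label, and all 10 GC markers were seen: *Dppa3*, a maternal-effect and pluripotency-associated gene, stood at 2160 UMIs per 1000000 UMIs of the class (CPM) against 5.93 in the other cells, and *Pou5f1*, a pluripotency factor, at 484 against 3.45. SC markers were low in these cells, from 0.225 CPM for *Cldn11* to 21.4 CPM for *Defb19*, which stood at 1105 CPM in the other cells. Because germ-like cells were deeper than the other cells, shares of cells with a UMI were also taken after each cell was thinned at random, in 1 draw, to 10000 UMIs, which left 240 germ-like cells and set 13 shallower ones aside.

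Of the genes with at least 50 UMIs in all kept cells, 3.43% (451 of 13157) were at least 10-fold higher in germ-like than in all other cells, and all 9 of the 10 genes that met this minimum were among them. The cluster was built without these genes, but with genes that vary with them, so the counts describe the cluster and test nothing. The ratio of CPM was 372 for *Nanos2* (188 to 866), 407 for *Sycp1* (250 to 714), 272 for *Dazl* (233 to 320) and, at the low end, 27.0 for *Rec8* (15.1 to 51.8), 33.9 for *Nanos3* (28.0 to 41.2) and 47.8 for *Dnd1* (42.7 to 53.5). *Stra8* had 36 UMIs in germ-like cells and 1 elsewhere, a ratio of 186 (31.4 to 7565), and was under the minimum of 50.

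*Nanos2*, which directs male GCs to the spermatogonial fate, lies at chr7:18987400-18988962 on the plus strand (GRCm38, GENCODE annotation). It gave 575 UMIs in germ-like cells, 64.6 CPM (59.5 to 70.1), with 0 to 10 UMIs per cell and a median of 2. A UMI was read in 191 of the 253 cells, 75.5% (69.7 to 80.7), and in 40.8% of the cells thinned to 10000 UMIs, so a zero in a cell of this library is in part a matter of depth. Outside GCs it was near 0: 8 UMIs in 3571 cells, and 3 cells in 853 SCs, 0.352%.

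*Nanos3* (chr8:84173731-84185217, minus strand), which keeps GCs alive, gave 824 UMIs and 92.6 CPM (86.4 to 99.2), with 0 to 14 UMIs per cell and a median of 3. It was read in 224 cells, 88.5% (84.0 to 92.2), and in 58.3% after thinning. The pair was seen together in 178 cells (70.4%), and 16 cells (6.32%, 3.66 to 10.1) showed neither gene. *Nanos3* was also read in 3.44% of the other cells. Peritubular myoid (PTM) cells stood at 4.58 CPM (3.13 to 6.47), followed by perivascular cells at 4.20 CPM (1.54 to 9.15, on 6 UMIs) and interstitial cells at 3.22 CPM (2.36 to 4.29), whose intervals overlap, while SCs stood at 1.72 CPM (1.08 to 2.60), under the lower bound of PTM cells.

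**Figure D1:**
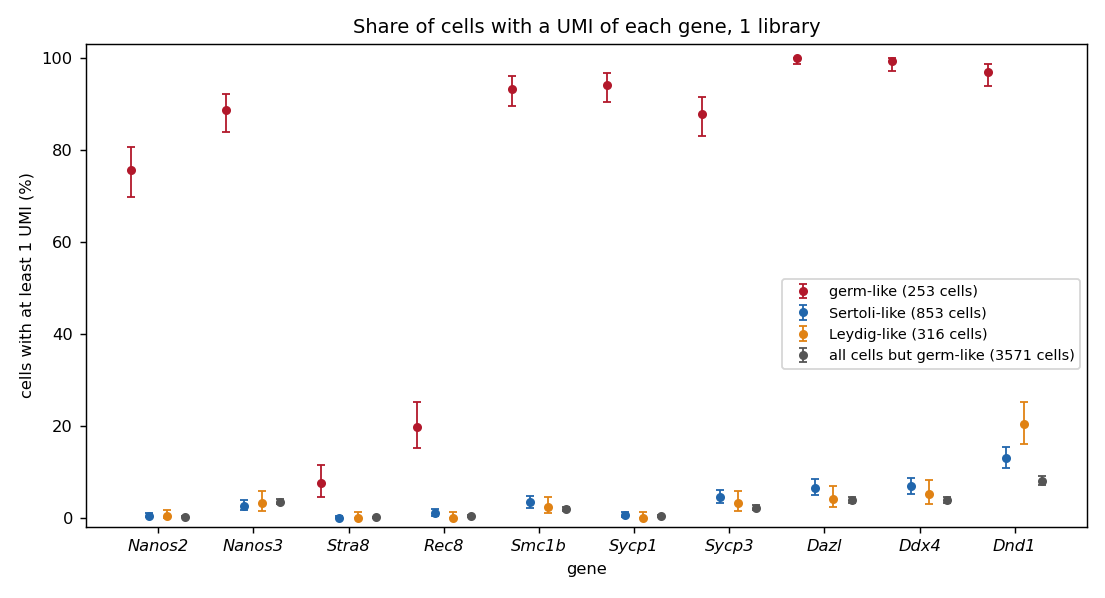
Share of cells with at least 1 UMI of each of the 10 genes, in percent, in the control library. Colours give germ-like cells (red), SCs (blue), LCs (orange) and all cells but germ-like ones (grey). Intervals are exact 95% binomial ones that cover the sampling of cells only. Germ-like cells run from 7.51% for *Stra8* to 100% for *Dazl*, and the highest share outside them is that of *Dnd1* in Leydig cells (LCs), 20.3%.

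The RNA-binding genes were read in nearly every germ-like cell. *Dazl* (chr17:50279395-50293636, minus strand), which promotes translation of GC messages, was read in all 253 cells, with 1 to 74 UMIs per cell and a median of 34, and stood at 969 CPM (949 to 990). *Ddx4* (chr13:112598333-112652475, minus), an RNA helicase of the GC granule, was read in 251 cells, 99.2%, with a median of 14 UMIs per cell and 396 CPM (383 to 409). *Dnd1* (chr18:36763671-36766214, minus) was read in 245 cells, 96.8% (93.9 to 98.6), with a median of 12 UMIs and 360 CPM (347 to 372). All 3 were read together in the same 245 cells that held *Dnd1*. The thinned shares were 100% for *Dazl*, 97.5% for *Ddx4* and 91.3% for *Dnd1*. *Dnd1* overlaps *Wdr55* on the opposite strand, and the sources used here do not give whether strand was used in counting, so its values may hold reads of that gene. *Nanos2*, *Sycp3*, *Smc1b* and *Sycp1* also overlap annotated genes on the opposite strand, for *Sycp3* the lipid enzyme gene *Chpt1*. *Nanos3* overlaps the microRNA genes *Mir181c* and *Mir181d* on the same strand, and their part in its counts was not tested.

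*Sycp3*, *Sycp1* and *Smc1b*, of the meiotic chromosome axis and synaptonemal complex, were read in most of these male cells. *Sycp3* (chr10:88459569-88473236, plus strand), the lateral element protein, was read in 222 cells, 87.7% (83.1 to 91.5), with 0 to 22 UMIs per cell, a median of 4 and 146 CPM (138 to 154). *Sycp1* (chr3:102818499-102936100, minus), the transverse filament protein, was read in 238 cells, 94.1%, with 0 to 21 UMIs per cell, a median of 4 and 141 CPM (134 to 149). *Smc1b* (chr15:85064689-85131964, minus), a meiotic cohesin ATPase, was read in 236 cells, 93.3%, with 0 to 20 UMIs per cell, a median of 4 and 145 CPM (138 to 154). After thinning, the shares were 66.3% for *Sycp3*, 68.3% for *Sycp1* and 67.9% for *Smc1b*. All 3 were read together in 203 cells, 80.2% (74.8 to 85.0).

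*Rec8* and *Stra8* were sparse. *Rec8* (chr14:55618037-55625395, plus strand), the meiotic kleisin, gave 73 UMIs in 50 cells, 19.8% (15.04 to 25.2), or 8.20 CPM (6.43 to 10.3), and 33 of those cells held a single UMI. *Stra8* (chr6:34920163-34939344, plus) gave 36 UMIs in 19 cells, 7.51% (4.58 to 11.5), or 4.05 CPM (2.83 to 5.60). Of the 19 cells, 14 held 1 UMI, 2 held 2, and 3 held 5, 5 and 8. Thinning left *Rec8* in 15 and *Stra8* in 11 of 240 cells, 6.25% and 4.58%. In 853 SCs, which should lack the gene and had a median depth of 14316 UMIs, no *Stra8* UMI was read. A count of 0 allows a share of up to 0.352% of cells with a UMI by the floor of 3 counts, or 0.432% by the exact binomial interval, and sets no limit on cells that express the gene below this depth. *Rec8* was read in 0.938% of SCs.

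The ratio of variance to mean of UMIs per cell, which is near 1 for counting error alone at equal depth, was above 1 for every gene. It ran from 1.54 for *Rec8*, 2.07 for *Nanos2* and 2.14 for *Nanos3* to 3.65 for *Stra8*, 4.93 for *Dnd1* and 5.82 for *Dazl*. Depth differed between the cells too, which raises this ratio, and more so for genes with many UMIs per cell. The order of the genes is therefore not an order of variability. In the 127 shallower germ-like cells (median 30061 UMIs) and the 126 deeper ones (43817.5), *Nanos2* stood at 64.5 and 64.7 CPM. *Sycp3* stood at 124 and 159 CPM, *Dnd1* at 316 and 387, *Dazl* at 1048 and 921, and *Stra8* at 2.36 and 5.09.

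**Figure D2:**
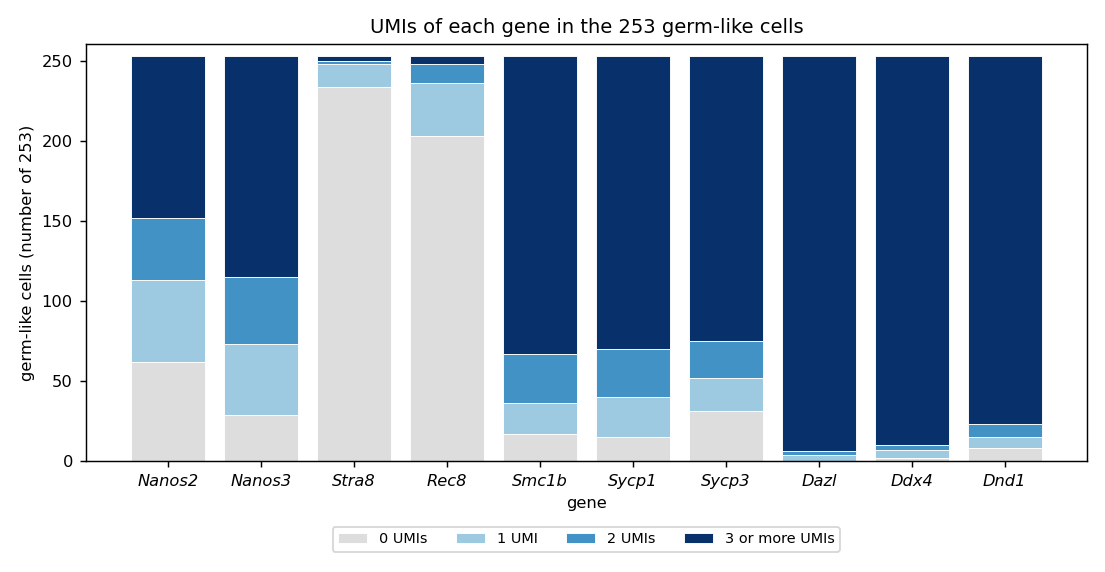
Number of the 253 germ-like cells with 0, 1, 2 and 3 or more UMIs of each of the 10 genes, stacked in 1 bar per gene. *Dazl* reaches 3 or more UMIs in 247 cells and *Nanos2* in 101, while *Stra8* and *Rec8* are at 0 in 234 and 203 cells.

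Outside GCs, most of these genes were read in low shares. Of the genes with a UMI in SCs, only *Sycp1* and *Nanos2* kept about the ratio to *Dazl* they had in GCs. For each *Dazl* UMI, germ-like cells held 0.146 UMIs of *Sycp1*, SCs 0.111 (on 7 UMIs) and interstitial cells 0.111 (on 5). *Nanos2* stood at 0.0667 in germ-like cells and 0.0476 in SCs, on 3 UMIs. The others were higher in SCs: *Ddx4* at 0.408 in germ-like cells and 1 in SCs, and *Sycp3* at 0.150 and 0.683. *Smc1b* stood at 0.150 and 0.476, and *Rec8* at 0.00846 and 0.127, on 8 UMIs in SCs. *Dnd1* gave 0.371 UMIs per *Dazl* UMI in germ-like cells, 2.03 in SCs and 7.08 in LCs. *Nanos3* stood at 0.0955 in germ-like cells, 0.349 in SCs and 1.78 in PTM cells. *Dnd1*, the NANOS2 partner, was read in 64 of 316 LCs, 20.3% (16.0 to 25.1), with a median depth of 16210.5 UMIs, and in 11.3% of thinned LCs. In SCs it was read in 12.9% (10.7 to 15.3), and in 9.97% after thinning. By CPM the order after germ-like cells among named classes was LCs (15.7, 12.6 to 19.2), SCs (9.99, 8.33 to 11.9), immune cells (7.32, 1.99 to 18.7) and interstitial cells (5.67, 4.50 to 7.04), where LCs and SCs did not overlap and immune cells overlapped both neighbours. Within LCs, the 132 cells led by *Clps*, *Cyp11a1* and *Cyp17a1*, genes of steroid-producing LCs, stood at 18.95 CPM (14.6 to 24.3) and the 184 cells led by *Nppc* and *Vsnl1* at 11.4 CPM (7.62 to 16.3). The overlap with *Wdr55* bears on these values too, and its part was not tested.

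Fate and meiosis genes were read in the same cells. *Nanos2* with *Sycp3*, *Smc1b* and *Sycp1* together was found in 165 of 253 germ-like cells, 65.2% (59.0 to 71.1). Each of these genes was read in most of the cells, so a large overlap follows from their shares alone. Of the 10 genes, 8 were read in the most common kind of cell (128 cells, 50.6%), 9 in 40 cells and all 10 in 3. Of the 45 pairs of genes, none was never seen together. Most pairs could not have been apart, because their cells with a UMI add up to more than all 253. Against the product of their shares, 32 pairs met in more cells, 4 in fewer, and 9 included *Dazl*, read in every cell. For the pairs without *Dazl*, the ratio of both to the product ran from 0.906 to 1.60. No background of other gene pairs was taken. After thinning to equal depth, 26 pairs were above the product, 10 below and 9 included *Dazl*, and 1 pair, *Stra8* with *Rec8*, was never seen together.

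*Nanos2* with *Stra8*, the male-fate gene and the meiotic gatekeeper, had the lowest ratio of both to the product as read and the highest after thinning (1.78). Cells with both numbered 13, beside a product of 14.3, a ratio of 0.906. *Nanos2* was read in 13 of the 19 cells with *Stra8*, 68.4% (43.4 to 87.4), and in 76.1% (70.1 to 81.4) of the 234 cells without, whose median depths were 37384 and 35959.5 UMIs. Its level was 59.8 CPM (42.9 to 81.2) in cells with *Stra8* and 65.0 CPM in those without. The intervals overlap widely, so no exclusion was detectable at this depth. After thinning, the order turned: *Nanos2* was read in 8 of 11 cells with *Stra8*, 72.7% (39.03 to 93.98), and in 39.3% of the others. Without the outlier filter, *Nanos2* was read in 80% of the cells with *Stra8* and in 77.6% of all 312 germ-like cells.

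*Rec8* met *Nanos2* about as often as the product of shares. *Nanos2* was read in 74.0% (59.7 to 85.4) of the 50 cells with *Rec8* and in 75.9% of the 203 without, and in 40.0% against 40.9% after thinning. *Stra8* with *Rec8* had the highest ratio, 1.60, on 6 cells against a product of 3.75, a share of 2.37% (0.875 to 5.09) of germ-like cells. *Stra8* stood at 8.83 CPM (5.14 to 14.1) in cells with *Rec8* and at 2.72 CPM (1.64 to 4.26) in cells without. Of the 17 UMIs in cells with *Rec8*, 8 came from 1 cell and 5 from another, so this difference rests on few cells. Every interval of a CPM level or ratio in this report treats UMIs as independent. Such intervals are too narrow for *Stra8* and for any gene whose counts varied between cells beyond counting error. After thinning no cell held both *Stra8* and *Rec8*, where the product was 0.688 of a cell. *Stra8* was then read in 11 and *Rec8* in 15 of 240 cells, so the values after thinning say little about the pair. *Nanos2*, *Stra8* and *Rec8* were read together in 4 cells, 1.58% (0.432 to 3.998).

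The cells richest in *Stra8* can be read one at a time. The cell with 8 *Stra8* UMIs held 3 of *Rec8*, 15 of *Smc1b*, 1 of *Nanos2*, 2 of *Nanos3* and none of *Sycp1*. A cell with 5 held 1 of *Rec8*, 10 of *Smc1b*, none of *Nanos2* and 8 of *Nanos3*, and the other with 5 held none of *Rec8*, 17 of *Smc1b*, 3 of *Nanos2* and 3 of *Nanos3*. All 3 were thus above the median of 4 *Smc1b* UMIs and all 3 held a *Nanos* gene. Of the 6 cells with *Stra8* and no *Nanos2*, 5 held *Nanos3*. Most germ-like cells did so too: 16 of 253 held neither *Nanos* gene, and *Nanos3* was read in 46 of all 62 cells without *Nanos2*, 74.2%.

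**Figure D3:**
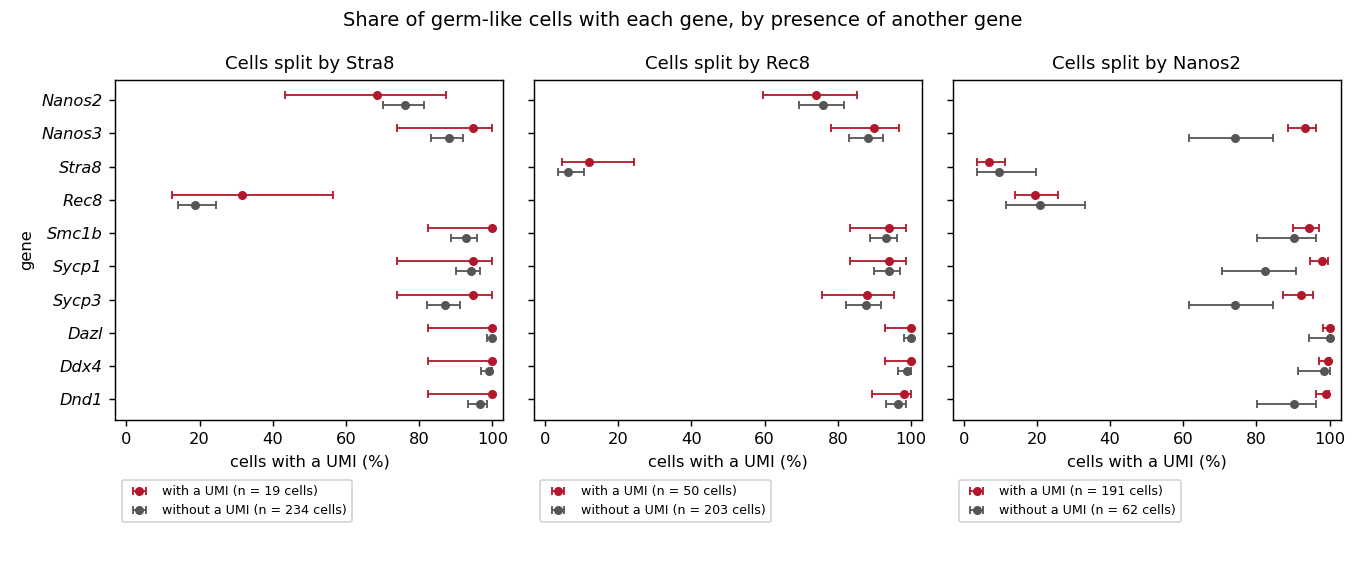
Percent of germ-like cells with a UMI of 1 gene, among cells with (red) and without (grey) a UMI of *Stra8*, *Rec8* or *Nanos2*. Intervals are exact 95% binomial ones that cover the sampling of cells only. *Nanos2* is read in 68.4% of the 19 *Stra8* cells and 76.1% of the others, while *Nanos3* is read in 93.2% of the *Nanos2* cells and 74.2% of the others. Shares are before thinning. After thinning to 10000 UMIs, the *Nanos3* shares were 64.3% and 54.2%, with overlapping intervals.

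Across the 253 germ-like cells, Pearson's r of log2(counts per 10000 UMIs + 1) ran from -0.23 to 0.54 over the 45 pairs, with a median of 0.02. The points share 1 library and differ in depth, and depth itself went with *Dnd1* (r = 0.48) and *Sycp3* (0.30) but hardly with *Stra8* (0.01) or *Rec8* (-0.08). The highest values were *Dnd1* with *Sycp3* (0.54), *Nanos3* with *Dnd1* (0.39), *Ddx4* with *Sycp3* (0.36) and *Nanos2* with *Nanos3* (0.34). *Sycp3* stood at 0.21 with *Nanos2*, 0.32 with *Nanos3* and -0.23 with *Smc1b*. *Nanos2* with *Stra8* was at -0.04 and with *Rec8* at -0.10, and *Stra8* with *Smc1b* at 0.17. After thinning, 3 of the 10 pairs at 0.2 or more remained at that level, *Ddx4* with *Sycp3* (0.27), *Dnd1* with *Sycp3* (0.22) and *Dazl* with *Smc1b* (0.21), and *Sycp3* with *Smc1b* stood at -0.17.

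**Figure D4:**
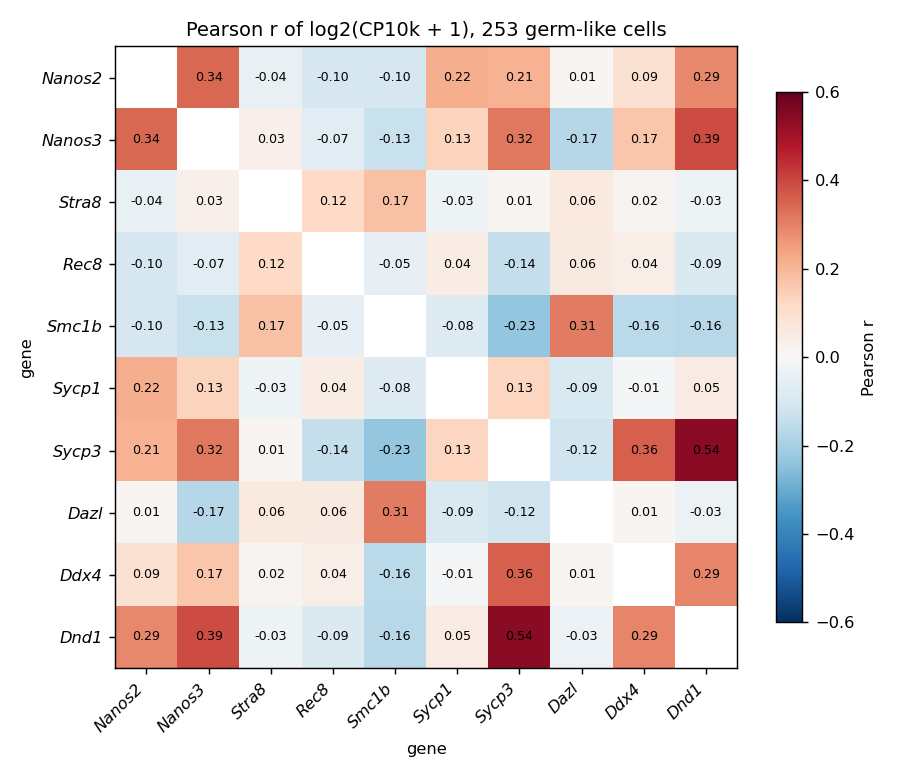
Pearson's r of log2(counts per 10000 UMIs + 1) between the 10 genes across 253 germ-like cells, with colour giving r. Values run from -0.23 (*Sycp3* with *Smc1b*) to 0.54 (*Dnd1* with *Sycp3*), and *Nanos2* with *Stra8* is at -0.04.

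The 191 germ-like cells with a *Nanos2* UMI (median 36808 UMIs) and the 62 without (32922.5) differed in the other genes. *Nanos3* stood at 102 against 58.2 CPM and was read in 93.2% (88.6 to 96.3) against 74.2% (61.5 to 84.5). *Sycp3* stood at 158 against 100 CPM, *Sycp1* at 150 against 109 and *Dnd1* at 384 against 268, all higher with *Nanos2*. *Smc1b* went the other way, at 134 CPM (126 to 143) with and 188 CPM (169 to 209) without. *Rec8* stood at 7.26 against 11.7 CPM and *Stra8* at 3.56 against 5.87, both on few UMIs, and the order for *Rec8* turned when *Nanos2* was read after thinning (log2 ratio 0.24). After thinning, *Sycp3* was read in 76.5% and 59.2% of cells with and without *Nanos2*, and *Smc1b* in 60.2% and 73.2%. *Nanos3* was then read in 64.3% (54.0 to 73.7) and 54.2% (45.7 to 62.6). *Sycp1* was read in 70.4% and 66.9%, and *Dnd1* in 95.9% and 88.0%. For each of these genes the intervals after thinning overlapped.

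None of the 8 other genes with at least 50 UMIs passed 2-fold in that split, where 3.2% of the 8740 genes tested were at least 2-fold higher and 2.65% at least 2-fold lower in cells with *Nanos2*. Their median log2 ratio was 0.38, beside 0.02 over all genes tested. The mitotic cycle genes had the clearest shift: 0 of 22 were 2-fold higher and 10 were 2-fold lower, with a median of -0.94. Their summed level was 2106 CPM with and 3538 CPM without *Nanos2*, a log2 ratio of -0.75 (-0.79 to -0.71). *Rrm2*, a ribonucleotide reductase subunit, stood at a log2 ratio of -2.64, the proliferation marker *Mki67* at -2.46, the mitotic kinase *Plk1* at -2.24 and *Ube2c*, a ubiquitin-conjugating enzyme of mitotic exit, at -1.50, while the checkpoint kinase *Bub1* stood at 0.28. Reading *Nanos2* after thinning brought the summed ratio to -0.37.

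Splitting the germ-like cells at the median of the summed cycle genes (1895 CPM, range 587 to 7128, 65 cells within 10% of the median) gave 2 groups, which are ranges of 1 score over the same cells and no cell types, with median depths of 37163 and 35759 UMIs. In the lower group *Nanos2* stood at 80.3 CPM and was read in 87.4% of 127 cells, in the upper group at 48.5 CPM and in 63.5% of 126, a log2 ratio of -0.73 (-0.98 to -0.48). *Nanos3* (-0.61), *Sycp3* (-0.59) and *Dnd1* (-0.37) were also lower in the upper group. *Smc1b* was higher there, at 191 against 101 CPM (log2 ratio 0.92, 0.75 to 1.08), and *Dazl* stood at 0.27. *Sycp1* (-0.19) and *Ddx4* (-0.15) lay between, and the intervals of *Rec8* (0.56, -0.15 to 1.28) and *Stra8* (0.69, -0.34 to 1.77) included 0. The meiosis genes thus fell on both sides, *Sycp3* with the *Nanos* genes and *Smc1b* with the cycle genes.

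Among 21 of 27 male GC fate genes tested in the *Nanos2* split, 3 were at least 2-fold higher and 2 at least 2-fold lower, with a median of 0.65. *Cdkn2b*, a cell cycle inhibitor, was higher at 1.77 (0.47 to 3.44, 64 UMIs with and 5 without). So were *Egr4*, a transcription factor (1.20, 0.86 to 1.55), and *Tdrd9*, a helicase of the piRNA pathway (1.11, 0.48 to 1.80). All 3 intervals reached below 2-fold. *Morc1*, a transposon silencer, stood just under the limit at 0.999. The lower ones were the Nodal antagonists *Lefty1* (-2.90, 157 UMIs with and 312 without) and *Lefty2* (-2.90). Among 18 of 20 pluripotency genes, 0 were higher and 2 lower, with a median of -0.51: the receptor *Kit* (-2.36) and *Klf5* (-1.15), while *Dppa4* stood at 0.92.

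Of 38 meiosis genes 19 were tested, with 0 higher, 2 lower and a median of 0.04. The 2 were *Sohlh2* (-1.55), a germline transcription factor, and *Mei4* (-1.11, -1.97 to -0.21), of the recombination initiation machinery. *Tex11* stood at 0.76, *Taf7l* at 0.74 and *Sycp2*, the partner of SYCP3, at 0.66. Of 18 retinoic acid genes 10 were tested, with 2 higher, 0 lower and a median of 0.04. The higher ones were the binding protein *Crabp2* (1.20, 0.49 to 1.99) and the synthetic enzyme *Aldh1a1* (1.07, 0.29 to 1.95). Of 18 RNA-binding partners 17 were tested, with 0 in either direction and a median of -0.06. *Mael* stood at 0.77, *Tdrd7* at 0.81 and *Cnot1*, the scaffold of the deadenylase complex, at -0.67. The 9 SC markers summed to 98.5 CPM in cells with *Nanos2* and 44.3 CPM in cells without, and hemoglobin-led erythroid markers to 241 and 178 CPM. The LC list, at 25.6 and 21.4 CPM, and the interstitial list, at 30.5 and 28.3 CPM, were slightly higher with *Nanos2*, with overlapping intervals. Lists of other types went the other way, at 67.8 and 87.6 CPM for PTM cells and 26.9 and 47.0 CPM for endothelial cells. Perivascular markers summed to 26.6 and 38.5 CPM and coelomic epithelium markers to 10.1 and 21.9 CPM. Some of these markers stood higher in germ-like than in other cells: *Pecam1* at 14.6 against 5.01 CPM and *Mcam* at 17.0 against 13.0. *Tpm1* led the PTM list in germ-like cells, at 61.7 CPM. The part of these lists in the values of this split was not tested.

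**Figure D5:**
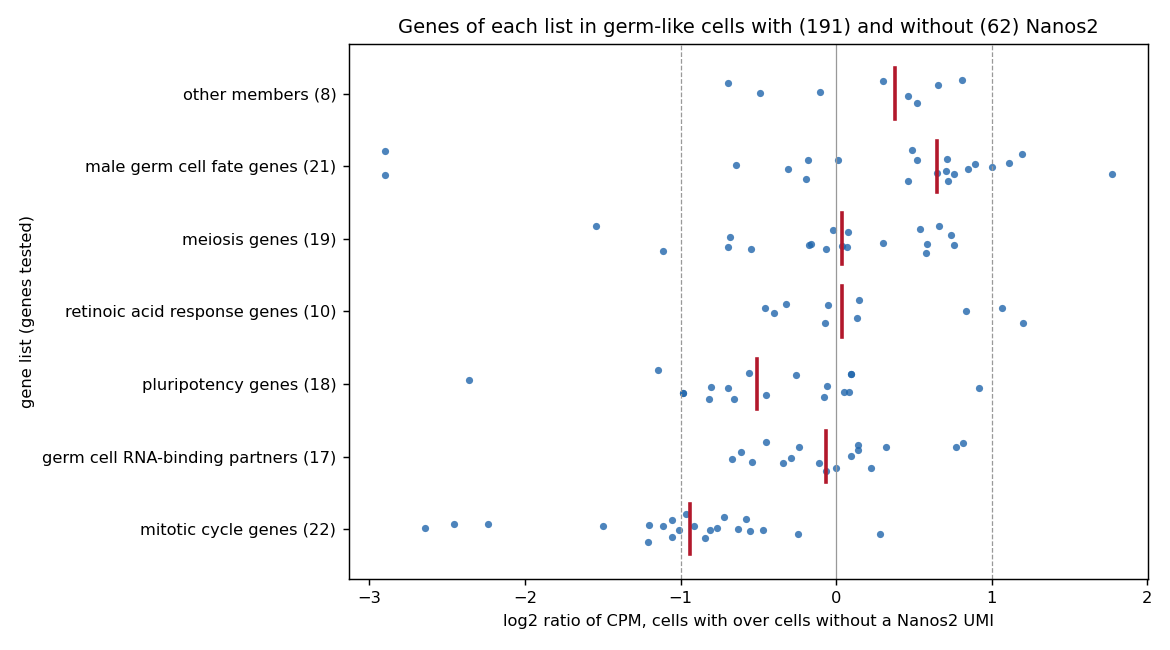
Log2 ratio of CPM in germ-like cells with over without a *Nanos2* UMI, by gene list, 1 point per gene with at least 50 UMIs a red line at each list's median and dashed lines at 2-fold. The top row holds the 8 other genes of the 10 that were tested. Mitotic cycle genes have a median of -0.94, male GC fate genes of 0.65 and meiosis genes of 0.04.

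The 19 cells with *Stra8* were compared in the same way with the 234 without. Over 8741 genes, 0.938% were at least 2-fold higher and 3.86% at least 2-fold lower, with a median of 0.01, and the unequal group sizes mean that the smaller one is counted on few UMIs. None of the 9 other genes passed 2-fold in either direction. *Smc1b* stood at 191 CPM (160 to 227) with and 142 CPM (134 to 150) without *Stra8*, a log2 ratio of 0.43 (0.16 to 0.69), and *Rec8* at 0.93 (-0.20 to 1.90). In the larger set of 312 germ-like cells that no outlier filter gave, the ratio for *Smc1b* was 0.11.

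The meiosis list had 0 genes higher and 1 lower, with a median of -0.15. The lower gene, the mismatch repair gene *Mlh3*, rested on 2 UMIs (log2 ratio -2.66, -5.71 to -0.78). *Mei4* stood at 0.90 (-0.50 to 2.06) and *Ythdc2*, an RNA helicase of meiotic entry, at 0.70 (-0.22 to 1.52). The cohesin subunit *Stag3* stood at -0.92 (-1.56 to -0.34). Of the male GC fate list 0 were higher and 3 lower, again with a median of -0.15. *Cdkn2b* rested on 2 UMIs (-1.48, -4.56 to 0.43) and *Tdrd9* on 8 (-1.07, -2.30 to -0.06). *Dnmt3l*, a cofactor of DNA methylation, rested on 6 (-1.05, -2.52 to 0.10). No gene of the pluripotency list passed 2-fold, with *Nanog* at 0.71 (0.03 to 1.33), *Kit* at 0.70 (-0.26 to 1.54) and a median of 0.11. The same held for the retinoic acid list, with a median of 0.01, and for the RNA-binding partners, with a median of -0.07. In the retinoic acid list, *Rdh10* stood at 0.64 (-0.87 to 1.88) and *Crabp1* at -0.97 (-2.88 to 0.43).

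Of the mitotic cycle list 0 were higher and 2 lower, with a median of -0.03. *Mki67* rested on 3 UMIs (-3.16, -5.45 to -1.60), *Ube2c* stood at -1.13, and the list summed to a log2 ratio of -0.20 (-0.28 to -0.12). The highest of the list were *Aurkb* (0.43, -0.53 to 1.26) and *Mcm4* (0.40, -0.22 to 0.97), whose intervals include both 0 and the summed ratio. Next came *Mcm5* (0.36, -0.05 to 0.75) and *Mcm3* (0.36, -0.01 to 0.71), whose intervals include 0 but lie above the summed ratio. *Ccnb1* stood at -0.90 (-1.30 to -0.52), below the summed ratio, so genes of the list departed from it in both directions. SC markers summed to 48.2 CPM with and 90.4 CPM without *Stra8*, and immune markers to 5.84 CPM, on 4 UMIs, against 0.487 CPM, whose part in these values was not tested.

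Among 7630 genes read in at least 25% of the germ-like cells, those whose pattern across the 253 cells was most like that of *Nanos2* were *Dppa4* (r = 0.42), *Sfr1* (0.40), *4930447C04Rik* (0.37), *Taf7* (0.36) and *Serf1* (0.35). Like *Sycp3* were *Fyttd1* (0.63), *Gtsf1* (0.63), *Mael* (0.62), *Taf7* (0.61) and *Stk31* (0.59), of which *Gtsf1* and *Mael* act in the piRNA pathway. *Rec8* had *Ddhd2* (0.36), *Mcfd2* (0.36), *Foxred1* (0.36), *Slc35b2* (0.35) and *Ypel2* (0.34), and *Stra8* had *Ushbp1* (0.28), *Mtor* (0.26), *Spryd7* (0.26), *Zfp653* (0.25) and *Cdca7* (0.25). For these sparse genes the values rest on 50 and 19 cells and are no finding.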

How the data were processed

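Droplet 3′ RNA counts of 1 pooled control library were used. Per the labels and file headers, the deposited values were raw UMI counts per gene and barcode made by the authors with Cell Ranger. The matrix header names 3.1.0, the processing notes list 3.0.2 and 3.1.0, and the builds are mm10 and GRCm38. No values of other samples were in the matrix.

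Of 5421 barcodes (72595083 UMIs), 372 with under 200 genes, 204 predicted doublets (0.8% per 1000 barcodes) and 1021 outliers beyond 3 median absolute deviations were removed, which left 3824 cells (54973199 UMIs, median 12117, range 2266 to 53807). The filter's upper limit removed 67 cells above 54009.5 UMIs. Cells were clustered in Seurat 5.3.0 with sctransform 0.4.2 (R 4.3.3; 3000 variable genes, of which the 8 studied genes among them were left out, 30 components, resolution 0.8) and named from marker lists. Cell cycle scores and the mitochondrial share of UMIs were regressed out before clustering. A shallow cluster of 63 cells (median 3181 UMIs) and 1 of 30 cells were left unnamed. Marker lists of other cell types summed in germ-like cells to between 0.487 and 241 CPM in the groups compared.

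CPM with exact Poisson intervals, shares with Clopper-Pearson intervals, ratios of CPM and Pearson's r were computed with scipy 1.17.1, pandas 2.3.3 and numpy 2.4.6 under Python 3.11.15. The Poisson intervals and ratios of CPM were tested on simulated counts with counting error alone. That test does not cover spread between cells beyond counting error. With 1 library no p-value is given. CPM are not divided by gene length. Levels, and counts per *Dazl* UMI, are compared between groups of cells and not between genes. Genes with under 50 UMIs were left out of counts of genes past a fold and of list medians, and *Stra8*, under that minimum, has its ratios printed with their intervals.

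The genes named were the 10 genes studied, up to 4 per list and direction, and the 5 with the highest r. The genes, lists and comparisons were chosen with earlier results of these data known. Alternatives were other cell filters, doublet handling, normalization, resolution, class rule, detection minimum, depth and UMI minimum.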

Additional observations from a re-analysis of the deposited data

Results flagged for a closer look

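In the 372 barcodes with fewer than 200 genes, which no comparison used, *Dazl* gave 4 UMIs, above the 3 UMIs that a count of 0 allows. The other 9 genes gave at most 3 UMIs there, and 46.8% of all UMIs there came from hemoglobin genes.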

How the results depend on the processing

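Of 109 values that answer a comparison, recomputed under the alternatives, 83 stayed within their limits, 26 moved and 0 reversed, and of 321 other values 287 stayed and 34 moved. Only a log2 ratio whose interval excluded 0 could count as reversed. Shares and counts of genes could not, so the orders that turned in the Results are not among the reversals. Some settings kept the same 253 germ-like cells, so these values are not independent checks. Without the outlier filter and with it at 5 median absolute deviations, 312 cells were germ-like, 47 genes were 2-fold higher and 183 lower with *Stra8* (82 and 337 in the report), and the summed cycle genes stood at -0.61 with *Nanos2* (-0.75). With no doublets removed, 514 genes were lower with *Stra8*. Counting a gene as seen only at 2 UMIs or more gave *Nanos2* in 55.3% and *Stra8* in 1.98% of cells, *Nanos2* in 40% of *Stra8* cells and 41.2% of *Rec8* cells, 761 genes higher and 615 lower with *Stra8*, 76 higher with *Nanos2* (280) and a cycle ratio of -0.60. Only 5 cells held 2 or more UMIs of *Stra8* and 17 of *Rec8*, so the values split by these genes there rest on few cells. With genes of at least 200 UMIs, 1 was higher and 30 lower with *Stra8*, and 58 and 79 with *Nanos2* (280 and 232). Thinning to 5000 UMIs gave *Nanos2* in 23.3% and *Stra8* in 1.20% of cells, and *Nanos2* in 33.3% of *Stra8* cells, a share that rests on very few cells. Reading *Nanos2* after thinning to 10000 UMIs gave 14 genes higher, 66 lower and a cycle ratio of -0.37. With genes of at least 10 UMIs, 818 (451) were 10-fold higher in germ-like cells. Fewer or more cells and genes enter each of these settings, and no other cause was tested. Counting error on 36 *Stra8* UMIs limits every value split by that gene. No paired analysis was possible because there was 1 library, and for the same reason no replicate could be left out.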
